A study of Bos taurus with 12 samples.

Results

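The right ventricles of 3 steers with pulmonary hypertension and right heart failure were compared with those of 6 steers with low pulmonary artery pressure. The 9 libraries were chosen by the phenotype in their labels, out of 12 in the series, and were described across the 11374 genes that reached 1 RPKM (reads in a gene's exons, scaled to the exons' length and to the library's mapped reads) in at least 3 of the 12 libraries. The table holds 24616 genes, of which 17284 were above 0 in any library, and 10814 of the tested genes have a symbol. All animals were wild-type Angus males, born and raised at 2170 m (7120 ft), where the air holds less oxygen, and were weaned and castrated at 6 to 8 months and slaughtered at 13 to 15 months. Repeated right heart catheterization, which gives the mean pulmonary artery pressure (PAP), and clinical signs put each animal into a class. The PH-failure group had high PAP with heart failure (3 animals) and the low-PAP group had low PAP (6 animals), while 3 animals with high PAP and no heart failure formed the PH-healthy group. The low-PAP animals lived under the same chronic hypoxia, so they are controls for pressure and disease and not for altitude. The labels call the low-PAP animals hypoxia-tolerant. Each library is total RNA from 1 animal's right ventricle, so fewer cells of a type and less RNA per cell cannot be told apart in any value below.

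The right ventricle pumps blood through the lungs, whose small arteries narrow when oxygen is low. In cattle at altitude this can raise the pressure until the ventricle thickens, dilates and fails, a condition known as brisket disease. Heart muscle under high wall tension is known for making natriuretic peptides, returning to fetal protein isoforms, gaining matrix and shifting away from fatty acid oxidation.

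Heart muscle genes were abundant in every library. MYL2, the ventricular regulatory light chain of myosin, was at 28382, 37055 and 18793 RPKM in replicates 1, 2 and 3 of PH-failure, against 18096 to 28812 RPKM in low PAP. TNNT2, cardiac troponin T, was at 8784, 8369 and 7800.3 RPKM against 7898 to 13199. MYH7, the slow myosin heavy chain of ventricle, was at 3413, 3840.2 and 2424 RPKM against 2041 to 3129. None of the 3 genes was called. The libraries held 14739237 to 31090198 mapped reads, recovered from the RPKM steps, with PH-failure replicate 1 the shallowest. Reads in genes of the mitochondrial genome made up 17.8 to 20.3% of the exon reads of the PH-failure libraries and 22.5 to 29.9% of those of the low-PAP libraries, without overlap (two-sided exact permutation test over 84 groupings, p = 0.0119, adjusted over 5 library measures 0.0298, and p = 0.107 without PH-failure replicate 3). The number of genes at 1 RPKM or more was 10968 to 11137 against 10198 to 10674 (exact p = 0.0119, adjusted 0.0298). Library names fall into the series 55 and 56, each run on its own lane per the file headers. Series 55 held PH-failure replicate 3 and 3 low-PAP libraries, and series 56 held PH-failure replicates 1 and 2 and the other 3. The mitochondrial share was lower in PH-failure within both series (17.8 against 24.13% and 20.1 against 25.17%).

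The comparison asks which ventricular transcripts differ between animals in right heart failure and animals with low pressure. Between the groups, 3190 genes were higher in PH-failure (28.0% of those tested) and 658 lower (5.79%), which together is 33.8% at a Benjamini-Hochberg adjusted p under 0.05 in limma. Differences are of log2(RPKM + 1), PH-failure minus low PAP, with the standard error of the model. The deposited scale shifts all genes together: their median difference was 0.21, and -0.03 after quantile normalization and 0.01 after median-ratio scaling. With these scalings 1133 and 1530 genes were higher and 1418 and 1681 lower. Under all 3 scalings 1006 genes (8.84%) were higher and 604 (5.31%) lower. All 3 PH-failure libraries lay above all 6 low-PAP libraries in 2112 genes (18.6%) and below them in 425 (3.74%). At least 2-fold differences on this scale were called in 504 genes that rose and 70 that fell.

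Calls in each direction differed in abundance. Among the 4753 genes with a mean under 5 RPKM, 1623 rose and 96 fell on the deposited scale, and 390 and 95 under all 3 scalings. Among the 659 genes at 100 RPKM or more, 76 rose and 156 fell, and 42 and 114 under all 3. Genes that rose had a median exon length of 2468 bases and genes that fell one of 1134 bases, against 1948 over all tested genes. The filter let 281 genes pass that reached 1 RPKM in fewer than 3 libraries outside PH-failure. Of these, 126 were among the genes called higher. Below 1 RPKM in every low-PAP library were 303 tested genes, of which 221 were called higher. They passed the filter only through high-PAP libraries, so their calls are partly fixed by it. SLC6A6, VCAN, CDKN2B and RANBP3L, named below, are among them. The direction was the same within series 56 for all 3848 called genes and within series 55 for 3837 of them. Selecting genes by the pooled difference of both series makes a shared direction likely beforehand. These 2 counts are therefore a description and not a separate check on the library series. Leaving out PH-failure replicate 3 lowered the counts to 1283 and 257, and leaving out PH-failure replicate 2 to 2038 and 329. The fallen genes numbered 424 without low-PAP replicate 3 and 435 without low-PAP replicate 4.

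**Figure D1:**
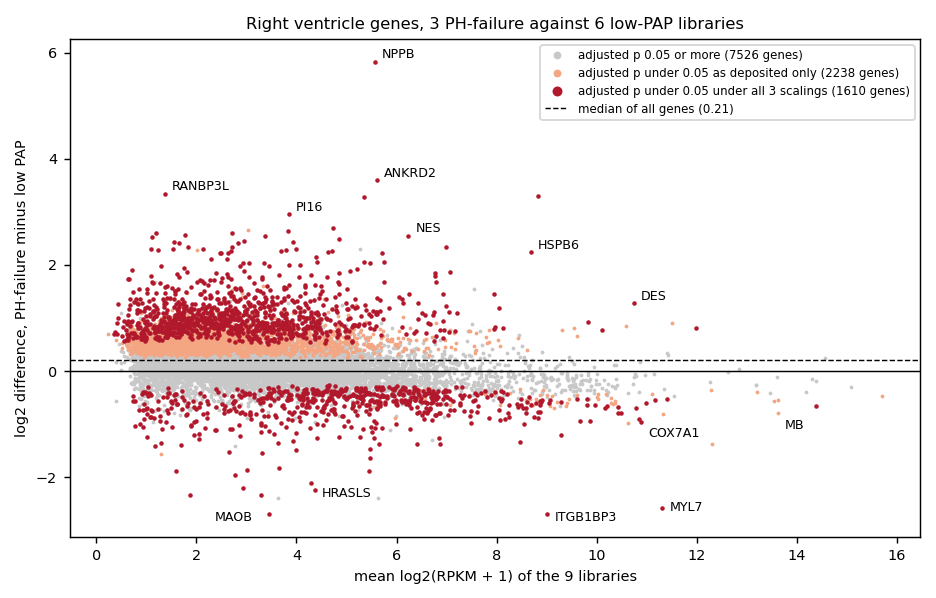
Each point is 1 of the 11374 tested genes, placed by its mean log2(RPKM + 1) over the 9 libraries (x axis) and its log2 difference, PH-failure minus low PAP (y axis). Dark points were called under all 3 scalings (1610 genes), light points as deposited but not under all 3 (2238), grey points were not called, and the dashed line is the median of 0.21: genes that rose lie further toward low abundance than genes that fell, and NPPB stands highest.

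Genes of the response to stretch and hypertrophy were among those that rose most. Of 24 tested genes of this list, 17 rose (70.8% against 28.0% over all tested genes, 12 of them under all 3 scalings) and 1 fell, with a median difference of 0.87. In what follows, 3 RPKM values are those of PH-failure replicates 1, 2 and 3 in that order, and the values set against them run from the lowest to the highest of the 6 low-PAP libraries, in RPKM. Counts of a list after rescaling are given as rescaled counts, under quantile normalization first and median-ratio scaling second. The lists together hold 1540 genes, of which 1478 are in the table and 1287 passed the filter, and counts are over those that passed. A call stands without remark where it held under every alternative setting other than a block on replicate numbers. That block, with which 29 of 143 named calls were lost, is described in the closing section. The largest rises and falls were chosen among genes without overlap, so their separation is not a further result. Genes named from a list were its called genes of smallest p, a choice that favours separate groups. Of the 3190 genes called higher 1934 did not overlap, and of the 658 called lower 359. Remarks on overlap are therefore a description of the values. Shares of a list that rose are read beside 28.0% over all tested genes, and shares that fell beside 5.79%. The lists were chosen with earlier results of these data known. A share above that of all genes may thus be partly built in, and is a description with no test.

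NPPB, the gene of B-type natriuretic peptide (released by ventricles under wall tension), lies on chromosome 16 (42700408 to 42701796, as the table gives it). It was at 460.3, 426 and 1710.2 RPKM in PH-failure and 3.23 to 70.4 (median 9.98) RPKM in low PAP. The lowest PH-failure library was several-fold above the highest low-PAP library, and replicate 3 stood above the other 2. The difference was 5.82 ± 0.79 (adjusted p = 0.00114). NPPA, the atrial natriuretic peptide gene, was at 246, 13.0 and 29.4 RPKM against 11.4 to 101 (median 21.7), so that only replicate 1 lay above the low-PAP range, and it was not called (adjusted p = 0.416). NPR3, the receptor that clears these peptides, was at 18.9, 53.2 and 94.0 RPKM against 4.13 to 16.8 (median 7.24) and rose by 2.43 ± 0.47 (adjusted p = 0.00428), with replicate 1 just above the highest low-PAP library.

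ANKRD2, a muscle ankyrin repeat protein that moves between the sarcomere and the nucleus, was at 128, 326 and 401 RPKM against 12.5 to 36.3 (median 19.7). It rose by 3.60 ± 0.34 (adjusted p = 0.000136), with replicate 1 lowest of the 3 and still above every low-PAP library. NES, the intermediate filament nestin, on chromosome 3 (14208424 to 14215064), was at 222, 299 and 219.9 RPKM against 36.1 to 51.7 (median 39.3). Its rise of 2.55 ± 0.13 had the smallest adjusted p of all tested genes (7.15e-07), and both groups were narrow. XIRP2, a Xin actin-binding protein of the intercalated disc, was at 47.6, 121 and 132 RPKM against 10.3 to 22.2 (median 12) (difference 2.70 ± 0.29, adjusted p = 0.000218). ANKRD23, of the same ankyrin repeat family as ANKRD2, was at 436, 591 and 376 RPKM against 153 to 248 (median 217) and rose by 1.19 ± 0.19 (adjusted p = 0.00183). The groups did not overlap in any of these 4 genes. ANKRD1, the third of the family and the most abundant, was at 2613, 4783 and 6812 RPKM against 1796 to 3528 (median 2160.4), with replicate 1 inside the low-PAP range. Its call (0.90, adjusted p = 0.0345) was lost under median-ratio scaling, with no filter on low values, with only the 2 groups fitted or without PH-failure replicate 2, PH-failure replicate 3, low-PAP replicate 1, low-PAP replicate 3 or low-PAP replicate 5.

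The gene of the list that fell was ITGB1BP3, whose product, also known as NMRK2, is a muscle nicotinamide riboside kinase that feeds NAD synthesis. It lies on chromosome 7 (21290812 to 21294189) and was at 379.9, 284 and 29.2 RPKM against 583 to 1395 (median 1107). Replicate 3 was lower than the other 2 by about an order of magnitude, and all 3 lay below the low-PAP libraries. The difference was -2.69 ± 0.63 (adjusted p = 0.0101).

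**Figure D2:**
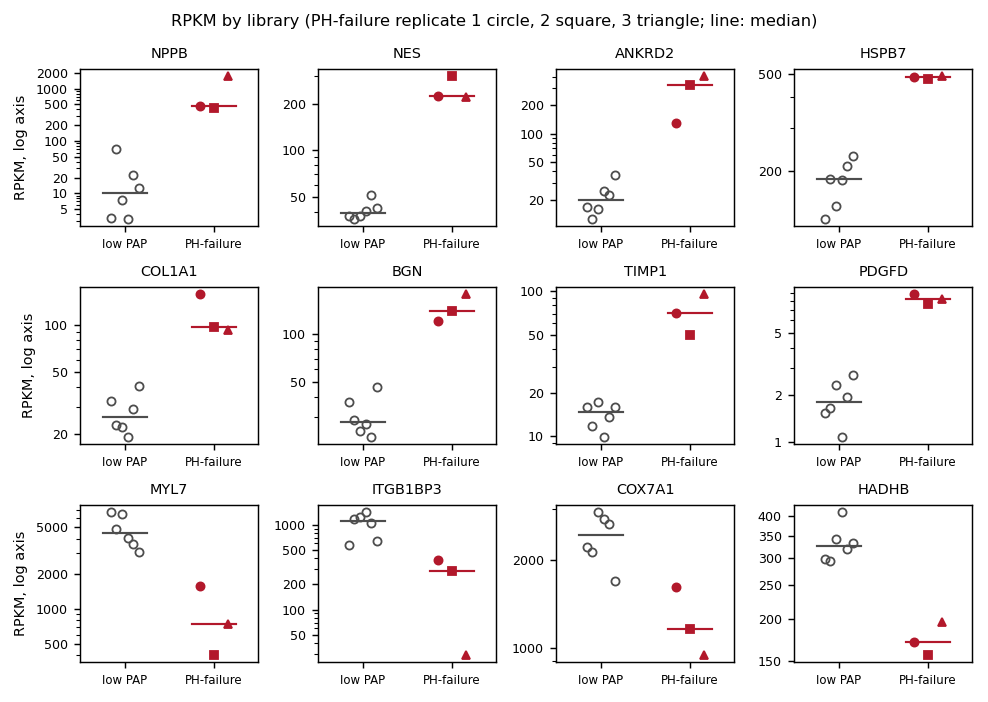
RPKM of 12 genes on log axes, with the 6 low-PAP libraries as open circles, the 3 PH-failure libraries as filled symbols and a line at each group's median. In NPPB, NES, ANKRD2, HSPB7, COL1A1, BGN, TIMP1 and PDGFD all PH-failure libraries lie above all low-PAP libraries, and in MYL7, ITGB1BP3, COX7A1 and HADHB all lie below.

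Sarcomere genes moved in both directions. Of 22 tested genes of ventricular sarcomere proteins, 7 rose and 5 fell (median 0.22, rescaled 7 and 4 higher, 1 and 6 lower). These shares were 31.8% and 22.7%, beside 28.0% and 5.79% over all tested genes. The number that rose was 4 without PH-failure replicate 2, and the number that fell was 2 without PH-failure replicate 2, 1 without PH-failure replicate 3, 3 without low-PAP replicate 1, 1 without low-PAP replicate 3, 1 without low-PAP replicate 4 and 1 without low-PAP replicate 5. Genes of the Z-disc and the M-band, where filaments are anchored, were among those that rose. MYPN, the Z-disc protein myopalladin, was at 25.1, 50.1 and 60.7 RPKM against 9.52 to 20.2 (median 12.9) and rose by 1.62 ± 0.28 (adjusted p = 0.00249). NEBL, nebulette, was at 115, 221 and 201 RPKM against 58.1 to 109 (median 83.0) and rose by 1.06 ± 0.23 (adjusted p = 0.00666). Among the myomesins of the M-band, MYOM1 was at 182, 198 and 149.7 RPKM against 79.3 to 148 (median 103) (difference 0.77, adjusted p = 0.00930). MYOM3 was at 47.1, 104 and 79.6 RPKM against 19.7 to 45.8 (median 30.6) (difference 1.25, adjusted p = 0.0102). In each of these 4 genes the PH-failure libraries lay above the low-PAP libraries, though by little in MYOM1, MYOM3 and NEBL.

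Genes of the thin filament were among those that fell. ACTC1, cardiac alpha-actin, was at 5959, 4006 and 831 RPKM and 6016 to 8988 (median 6863) RPKM, with replicate 3 far below the rest. Its difference of -1.36 ± 0.45 (adjusted p = 0.0345) was lost with no filter on low values, with only the 2 groups fitted, under quantile normalization or without PH-failure replicate 3, low-PAP replicate 3, low-PAP replicate 4 or low-PAP replicate 5. TNNI3, cardiac troponin I, was at 11139, 9362 and 7266 RPKM against 9708 to 16292 (median 14016), with replicate 1 inside the low-PAP range, and its fall (-0.57, adjusted p = 0.0329) was lost with only the 2 groups fitted, under quantile normalization or without PH-failure replicate 2, PH-failure replicate 3, low-PAP replicate 3, low-PAP replicate 4 or low-PAP replicate 5. TMOD1, which caps thin filaments at their pointed ends, was at 74.8, 60.3 and 40.8 RPKM against 77.5 to 88.6 (median 84.8), below all low-PAP libraries (difference -0.56 ± 0.15, adjusted p = 0.0154). The call did not hold without PH-failure replicate 3. ACTA1, the skeletal alpha-actin that fetal and overloaded hearts make, was at 1827, 5881 and 850.3 RPKM against 41.1 to 1056 (median 196). Replicate 2 was highest and replicate 3 lay inside the low-PAP range, and the difference of 3.31 ± 0.90 (adjusted p = 0.0186) was lost without PH-failure replicate 2. The sources used here do not say how reads shared by the actins were assigned, so the levels of ACTA1 and ACTC1 are uncertain.

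Of 10 tested genes of atrial, fetal and skeletal isoforms, 3 fell and none rose (rescaled 0 and 0 higher, 3 and 4 lower). MYL7, the regulatory light chain of atrial myosin, on chromosome 4 (77860260 to 77862353), was at 1560.5, 403 and 736 RPKM against 3065 to 6738 (median 4454). It fell by 2.57 ± 0.36 (adjusted p = 0.00115), and the highest PH-failure library was below the lowest low-PAP library. MYBPHL, a myosin-binding protein of atria, was at 4.09, 2.08 and 0.891 RPKM against 2.84 to 13.3 (median 10.5), with replicate 1 inside the low-PAP range (difference -1.53, adjusted p = 0.0167), a call lost without PH-failure replicate 3. TPM2, beta-tropomyosin, was at 983, 943 and 968 RPKM against 1297 to 1849 (median 1433) and fell by 0.62 ± 0.14 (adjusted p = 0.00812), a call lost under quantile normalization. Of 12 atrial markers in the table, 8 were tested, 2 fell (MYL7 and MYBPHL) and 1 rose (NR2F2, a call lost under median-ratio scaling or under quantile normalization). The summed level of the list was 444 to 1865 RPKM in PH-failure and 3113 to 6804 RPKM in low PAP, most of it MYL7, and 1 marker was at 0 in every library. The part of atrial tissue in the fall of MYL7 was not tested.

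The cytoskeleton around the sarcomere was read from 3 lists. DES, the intermediate filament desmin, was at 2665, 2492 and 4478 RPKM against 1167 to 1536 (median 1240.1), a rise of 1.28 ± 0.17 (adjusted p = 0.00100) with all PH-failure libraries above all low-PAP libraries. MAP1A, a microtubule-associated protein, was at 11.2, 20.6 and 21.9 RPKM against 1.94 to 4.15 (median 2.73) and rose by 2.26 ± 0.24 (adjusted p = 0.000237). MAP4, the main microtubule stabilizer of striated muscle, was at 62.8, 113 and 105 RPKM against 22.4 to 61.5 (median 30.6) (difference 1.38 ± 0.26, adjusted p = 0.00421), with replicate 1 only just above the low-PAP libraries. CTNNA3, the alpha-catenin of cardiac adherens junctions, was at 14.3, 20.6 and 23.4 RPKM against 5.54 to 9.97 (median 8.41) and rose by 1.16 ± 0.18 (adjusted p = 0.00156). Of 19 tested genes of intermediate filaments and the intercalated disc 9 rose and none fell (14 without low-PAP replicate 6, rescaled 8 and 6 higher, 0 and 0 lower). Of 29 genes of integrins and costameres, which tie the cell to its matrix, 17 rose and none fell (10 without PH-failure replicate 3, rescaled 11 and 11 higher, 0 and 0 lower), with a median of 0.59. ITGAV, the integrin alpha-V subunit that binds vitronectin and latent TGF-beta, was at 11.7, 26.3 and 26.8 RPKM against 2.43 to 7.65 (median 3.62) and rose by 2.04 ± 0.33 (adjusted p = 0.00187). TLN1, talin, which links integrins to actin, was at 18.0, 15.5 and 20.3 RPKM against 6.42 to 12.6 (median 8.39) (difference 0.92, adjusted p = 0.00350). DMD, dystrophin, was at 21.1, 26.7 and 18.8 RPKM against 8.69 to 16.7 (median 11.3) (difference 0.89, adjusted p = 0.00415). Of 18 tubulin and microtubule genes 6 rose and 1 fell (rescaled 4 and 4 higher, 1 and 2 lower), and the median was 0.13 as deposited and -0.02 after quantile normalization, so no direction held for it as a whole.

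Of 19 tested genes of calcium cycling 8 rose (4 without PH-failure replicate 3) and 1 fell, a share of 42.1% higher beside 28.0% over all tested genes (rescaled 3 and 5 higher, 0 and 1 lower). SRL, sarcalumenin, a calcium-binding protein of the sarcoplasmic reticulum, was at 75.6, 111 and 97.7 RPKM against 20.4 to 72.0 (median 37.3) and rose by 1.34 ± 0.32 (adjusted p = 0.0107). SLC8A1, the sodium-calcium exchanger that removes calcium from the cell, was at 64.5, 89.6 and 92.3 RPKM against 24.6 to 62.6 (median 33.2) (difference 1.12 ± 0.27, adjusted p = 0.0106), with replicate 1 close to the highest low-PAP library. ASPH, whose locus also encodes junctin of the calcium release complex, was at 12.4, 18.0 and 26.2 RPKM against 5.87 to 8.44 (median 7.07) and rose by 1.22 ± 0.19 (adjusted p = 0.00169). PLN, phospholamban, the inhibitor of the calcium pump, was at 419, 462 and 353 RPKM against 441 to 885 (median 689), with replicate 2 inside the low-PAP range. Its fall (-0.69, adjusted p = 0.0173) was lost under quantile normalization or without PH-failure replicate 3.

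Ion channel genes showed few calls, with 3 of 19 higher (1 without PH-failure replicate 3, 5 without low-PAP replicate 2 and 8 without low-PAP replicate 6) and 2 lower (4 without PH-failure replicate 1). Rescaled counts were 2 and 2 higher, 3 and 4 lower. SCN3B, the beta-3 subunit of voltage-gated sodium channels, was at 102, 287 and 214 RPKM against 5.76 to 67.6 (median 18.2), above every low-PAP library (difference 3.27 ± 0.59, adjusted p = 0.00347). KCNJ5, a subunit of the acetylcholine-gated potassium channel, was at 11.1, 6.39 and 2.47 RPKM against 10.3 to 24.2 (median 13.6), with replicate 1 inside the low-PAP range and the other 2 below it (difference -1.19, adjusted p = 0.0157, a call lost without PH-failure replicate 3).

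Among 27 genes of adrenergic and cyclic nucleotide signalling, 10 rose (5 without PH-failure replicate 3) and 2 fell (rescaled 7 and 8 higher, 2 and 4 lower), a share of 37.0% higher. The phosphodiesterase PDE4B, which breaks down cyclic AMP, was at 4.63, 5.04 and 5.16 RPKM against 0.685 to 1.74 (median 0.973) and rose by 1.5 ± 0.19 (adjusted p = 0.000694). PRKAR1A, a regulatory subunit of protein kinase A, was at 106, 122 and 127 RPKM against 58.8 to 82.5 (median 70.4) (difference 0.75 ± 0.12, adjusted p = 0.00183). The libraries of both genes were separate, with narrow PH-failure values. PPP1R1A, inhibitor-1 of protein phosphatase 1, which prolongs the effect of protein kinase A, was at 30.8, 18.9 and 8.68 RPKM against 49.1 to 88.5 (median 68.4) and fell by 1.87 ± 0.30 (adjusted p = 0.00190), again with no overlap.

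Hypertrophy signalling genes rose in 14 of 25 cases and fell in 1 (rescaled 7 and 7 higher, 2 and 1 lower). The number that rose was 7 without PH-failure replicate 3, 9 without low-PAP replicate 3 and 9 without low-PAP replicate 4. RCAN1, the regulator of calcineurin whose short isoform is made in response to calcineurin activity, was at 93.9, 120 and 233 RPKM against 18.5 to 51.3 (median 36.0) and rose by 2.06 ± 0.38 (adjusted p = 0.00343), with replicate 3 highest. RCAN2, its relative, was at 56.2, 59.2 and 42.6 RPKM against 19.5 to 39.7 (median 28.4) (difference 0.88, adjusted p = 0.00489). MEF2C, a transcription factor of muscle growth, was at 7.36, 9.20 and 8.34 RPKM against 2.37 to 5.92 (median 3.91) (difference 0.90, adjusted p = 0.00761). All PH-failure libraries lay above the low-PAP range in these 3 genes, by the smallest margins in RCAN2 and MEF2C.

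Of 22 tested cardiac transcription factors, 9 rose and none fell (rescaled 7 and 6 higher, 2 and 2 lower). TBX20, a T-box factor of heart development, was at 15.0, 13.2 and 19.7 RPKM against 3.35 to 7.17 (median 6.32) and rose by 1.38 ± 0.22 (adjusted p = 0.00177). GATA6 was at 29.0, 24.2 and 22.6 RPKM against 8.28 to 18.2 (median 12.9) (difference 0.98 ± 0.19, adjusted p = 0.00400). PROX1, a homeobox factor of muscle and lymphatic endothelium, was at 6.01, 8.81 and 9.76 RPKM against 2.07 to 4.26 (median 3.24) (difference 1.16 ± 0.20, adjusted p = 0.00295). None of the 3 overlapped between the groups. The 18 tested immediate early genes gave no call in limma (3 at an unadjusted p under 0.05, and 1 call by limma-voom), with a median of 0.15 as deposited and -0.16 after quantile normalization, though 3 were called without low-PAP replicate 6. The smallest p was that of CYR61, a matricellular growth factor, at 33.2, 20.1 and 54.6 RPKM against 10.2 to 34.9 (median 16.1) (adjusted p = 0.0539).

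Clock genes rose in 8 of 16 cases, though in 5 without PH-failure replicate 2 and 2 without PH-failure replicate 3 (rescaled 2 and 4 higher, 0 and 0 lower). BHLHE40, a repressor of clock-driven transcription, was at 13.0, 12 and 11.6 RPKM against 3.79 to 5.70 (median 5.42), well apart, and rose by 1.13 ± 0.20 (adjusted p = 0.00296). The time of day at which the tissue was taken is not given in the labels. Of 12 genes of nuclear hormone receptors 3 rose (5 without low-PAP replicate 2 and 5 without low-PAP replicate 6, rescaled 2 and 2 higher, 0 and 1 lower). As deposited, this share was below the 28.0% over all tested genes. GR-A, the table's name for the glucocorticoid receptor, was at 8.24, 8.01 and 10.6 RPKM against 2.41 to 4.48 (median 3.87) and rose by 1.11 ± 0.18 (adjusted p = 0.00199). PPARD, a fatty acid-sensing receptor, was at 5.60, 5.38 and 6.27 RPKM against 1.75 to 3.58 (median 2.36) (difference 0.98 ± 0.14, adjusted p = 0.00133).

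Since all animals lived in hypoxia, oxygen-sensing genes compare pressure and disease at the same altitude. Of 21 tested genes 8 rose (4 without PH-failure replicate 3) and 1 fell (rescaled 5 and 7 higher, 1 and 1 lower). The share that rose was 38.1%, beside 28.0% over all tested genes. EGLN3, an oxygen-dependent prolyl hydroxylase that marks hypoxia-inducible factors for breakdown and is induced by them, was at 71.1, 120.1 and 225 RPKM against 32.9 to 71.4 (median 49.2) and rose by 1.39 ± 0.31 (adjusted p = 0.00785). Replicate 1 lay at the top of the low-PAP range and replicate 3 highest. HIF3A, a relative of these factors, was at 5.29, 7.95 and 9.01 RPKM against 9.49 to 14.5 (median 11.6), below every low-PAP library (difference -0.63, adjusted p = 0.0327), a call lost with no filter on low values or without PH-failure replicate 1, PH-failure replicate 2, low-PAP replicate 3 or low-PAP replicate 4.

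Vasoactive genes gave 5 higher (3 without PH-failure replicate 3 and 8 without low-PAP replicate 6) and 2 lower of 20 (rescaled 2 and 3 higher, 2 and 2 lower). As deposited, the share higher was below the 28.0% over all tested genes. EDN1, the precursor of the vasoconstrictor endothelin-1, was at 3.22, 2.15 and 13.3 RPKM against 0.768 to 1.92 (median 1.26), above the low-PAP range by little in replicate 2 and by far in replicate 3 (difference 1.31 ± 0.35, adjusted p = 0.0166), a call lost under quantile normalization. EDNRA, its receptor on muscle cells, was at 18.5, 10.9 and 17.3 RPKM against 22.2 to 32.0 (median 26.5) and fell by 0.76 ± 0.15 (adjusted p = 0.00543). PTGIS, prostacyclin synthase, was at 8.21, 4.74 and 8.94 RPKM against 2.13 to 4.14 (median 2.62) and rose by 1.12 ± 0.20 (adjusted p = 0.00307). In the last 2 genes the groups did not overlap.

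Matrix genes rose across all 6 lists that describe them. The numbers of tested genes that rose were 13 of 19 for fibrillar collagens and their processing, 18 of 21 for basement membrane and fibril-associated collagens, and 16 of 22 for matricellular proteins. They were 11 of 16 for proteoglycans, 16 of 20 for elastic fibres and crosslinking, and 13 of 19 for proteases and their inhibitors. A single member of these 6 lists fell. After rescaling, in the order of the lists, the numbers that rose were 11, 12, 13, 10, 11 and 8 with quantile normalization and 10, 13, 15, 9, 10 and 9 with median-ratio scaling. Their medians ran from 0.71 to 0.92, against 0.21 over all tested genes. Without PH-failure replicate 3, the numbers were 10 for elastic fibres and 8 for proteases, and the other 4 lists changed by less than 1.5 times.

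COL1A1, the alpha-1 chain of type I collagen, was at 158, 97.1 and 93.5 RPKM against 19.3 to 40.7 (median 25.9) and rose by 2.03 ± 0.32 (adjusted p = 0.00186), with replicate 1 highest. COL5A1, which sets fibril diameter, was at 8.26, 9.94 and 10.9 RPKM against 1.76 to 4.32 (median 3.01) and rose by 1.49 ± 0.24 (adjusted p = 0.00188). COL8A1, a short-chain collagen of vessel walls, was at 13.2, 17.1 and 27.4 RPKM against 1.68 to 5.10 (median 2.76) (difference 2.33 ± 0.36, adjusted p = 0.00166). In all 3 the PH-failure libraries lay clear of the low-PAP range. LAMA2, the laminin chain around muscle fibres, was at 37.9, 67.1 and 63.8 RPKM against 11.4 to 26.3 (median 13.8) (difference 1.78 ± 0.24, adjusted p = 0.000892). FN1, fibronectin, was at 49.6, 29.3 and 35.0 RPKM against 8.65 to 15.7 (median 11.0) (difference 1.62 ± 0.27, adjusted p = 0.00205). Values lay clear of the low-PAP range for both. THBS4, a thrombospondin of stressed heart, was at 82.3, 96.5 and 93.5 RPKM against 10.2 to 23.4 (median 14.3) (difference 2.50 ± 0.41, adjusted p = 0.00199), with PH-failure values close together. FBLN1, the matrix glycoprotein fibulin-1, was at 49.3, 42.1 and 40.9 RPKM against 8.70 to 15.7 (median 12.1) (difference 1.81 ± 0.23, adjusted p = 0.000694), with the PH-failure libraries all several-fold above the low-PAP median.

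BGN, the small leucine-rich proteoglycan biglycan, was at 121, 139 and 177 RPKM against 22.6 to 46.3 (median 27.9) and rose by 2.22 ± 0.29 (adjusted p = 0.000788). VCAN, the large proteoglycan versican, was at 3.83, 4.79 and 7.27 RPKM against 0.372 to 0.937 (median 0.503) and rose by 1.98 ± 0.19 (adjusted p = 0.000136). PRG4, the lubricating proteoglycan lubricin, was at 8.73, 11.2 and 16.4 RPKM against 0.567 to 3.76 (median 1.38) (difference 2.30 ± 0.32, adjusted p = 0.00113). The groups were separate in each. LTBP2, a latent TGF-beta binding protein of microfibrils, was at 10.9, 13.9 and 28.3 RPKM against 1.79 to 5.75 (median 2.35) (difference 2.23 ± 0.29, adjusted p = 0.000826). FBN1, the microfibril protein fibrillin-1, was at 23.6, 32.5 and 33.8 RPKM against 5.94 to 14.6 (median 8.47) (difference 1.63, adjusted p = 0.00277). Both were lowest in replicate 1 among the PH-failure libraries and without overlap. LOXL1, a lysyl oxidase that crosslinks elastin, was at 10.9, 12.6 and 16.9 RPKM against 2.01 to 3.68 (median 3.30) (difference 1.82 ± 0.32, adjusted p = 0.00283). TIMP1, a tissue inhibitor of matrix metalloproteinases, was at 70.6, 49.6 and 95.0 RPKM against 9.90 to 17.2 (median 14.7) and rose by 2.25 ± 0.27 (adjusted p = 0.000534). MMP2, the gelatinase that it can inhibit, was at 77.8, 77.1 and 117 RPKM against 17.1 to 34.6 (median 20.8) and rose by 1.93 ± 0.31 (adjusted p = 0.00185). Protease and inhibitor were both above the low-PAP range in every PH-failure library. The protease that fell was MMP11, at 1.84, 0.827 and 0.649 RPKM against 1.53 to 4.31 (median 2.04) (adjusted p = 0.0377), a call lost with no filter on low values, with only the 2 groups fitted or without PH-failure replicate 2, PH-failure replicate 3, low-PAP replicate 1, low-PAP replicate 3, low-PAP replicate 4 or low-PAP replicate 5.

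Fibroblast markers moved with these lists. Of the 19 that the table holds, 18 were tested, 11 rose (7 without PH-failure replicate 3, 7 without low-PAP replicate 3 and 7 without low-PAP replicate 4, rescaled 7 and 6 higher, 0 and 0 lower) and none fell, and some of them are matrix genes named above. Their summed level was 1301 to 1996 RPKM in PH-failure and 864 to 1184 RPKM in low PAP, and no marker was at 0 in all libraries. The part of fibroblast number in the matrix genes was not tested. PI16, a peptidase inhibitor of adventitial fibroblasts, was at 63.3, 51.4 and 51.9 RPKM against 4.54 to 12.4 (median 5.41) and rose by 2.96 ± 0.32 (adjusted p = 0.000237). THY1, a fibroblast surface protein, was at 22.1, 14.1 and 10.3 RPKM against 4.36 to 6.74 (median 5.88) (difference 1.23 ± 0.22, adjusted p = 0.00303). Both had replicate 1 highest and no overlap.

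Ligands and receptors that act on matrix-making cells were read from 4 lists. The numbers that rose were 12 of 24 for TGF-beta, activin and BMP (7 without PH-failure replicate 3, rescaled 9 and 11 higher, 0 and 0 lower), 13 of 24 for PDGF, FGF, VEGF and EGF (7 without PH-failure replicate 3, rescaled 5 and 7 higher, 0 and 1 lower), and 9 of 18 for Wnt genes (5 without PH-failure replicate 3, rescaled 6 and 9 higher, 0 and 0 lower). For insulin-like growth factors it was 7 of 11, with 4 without PH-failure replicate 1, 4 without PH-failure replicate 2, 4 without PH-failure replicate 3, 3 without low-PAP replicate 3 and 3 without low-PAP replicate 4 (rescaled 3 and 3 higher, 0 and 0 lower). None of these 4 lists held a gene that fell on the deposited scale. FSTL3, a secreted antagonist of activin and myostatin, was at 12, 27.0 and 27.7 RPKM against 1.30 to 6.71 (median 2.33) and rose by 2.60 ± 0.35 (adjusted p = 0.000879). TGFB2, the ligand TGF-beta 2, was at 3.21, 6.22 and 5.75 RPKM against 0.693 to 1.64 (median 0.896) (difference 1.56 ± 0.21, adjusted p = 0.00102), with replicate 1 lowest. PDGFD, a platelet-derived growth factor, was at 8.78, 7.64 and 8.26 RPKM against 1.08 to 2.68 (median 1.80) (difference 1.71 ± 0.17, adjusted p = 0.000148), with 3 narrow PH-failure values. The groups were separate in these 3 genes. HBEGF, a growth factor shed from the surface of cells, was at 6.31, 10.2 and 21.6 RPKM against 2.03 to 3.23 (median 2.17) (difference 1.84 ± 0.30, adjusted p = 0.00205). Among Wnt modulators, APCDD1, an inhibitor at the cell surface, was at 20.03, 25.9 and 23.5 RPKM against 1.91 to 6.42 (median 3.25) (difference 2.45 ± 0.25, adjusted p = 0.000186). DKK3, a secreted Dickkopf protein, was at 197, 177 and 444 RPKM against 56.9 to 89.9 (median 68.0) (difference 1.80 ± 0.25, adjusted p = 0.00110), with replicate 3 highest. The PH-failure values of both Wnt genes lay far above the highest low-PAP value. IGF2R, which carries insulin-like growth factor 2 to lysosomes, was at 8.96, 13.8 and 12 RPKM against 2.09 to 7.87 (median 2.89) (difference 1.41 ± 0.28, adjusted p = 0.00463). Its PH-failure libraries lay above every low-PAP library, replicate 1 by little.

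A list of axon guidance and neural adhesion genes had 14 of 24 higher (8 without PH-failure replicate 3, rescaled 9 and 10 higher, 1 and 0 lower) and none lower. NCAM1, a neural cell adhesion molecule that developing and denervated muscle also makes, was at 8.78, 7.85 and 5.41 RPKM against 0.525 to 2.76 (median 0.846) and rose by 1.94 ± 0.27 (adjusted p = 0.00104), without overlap.

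**Figure D3:**
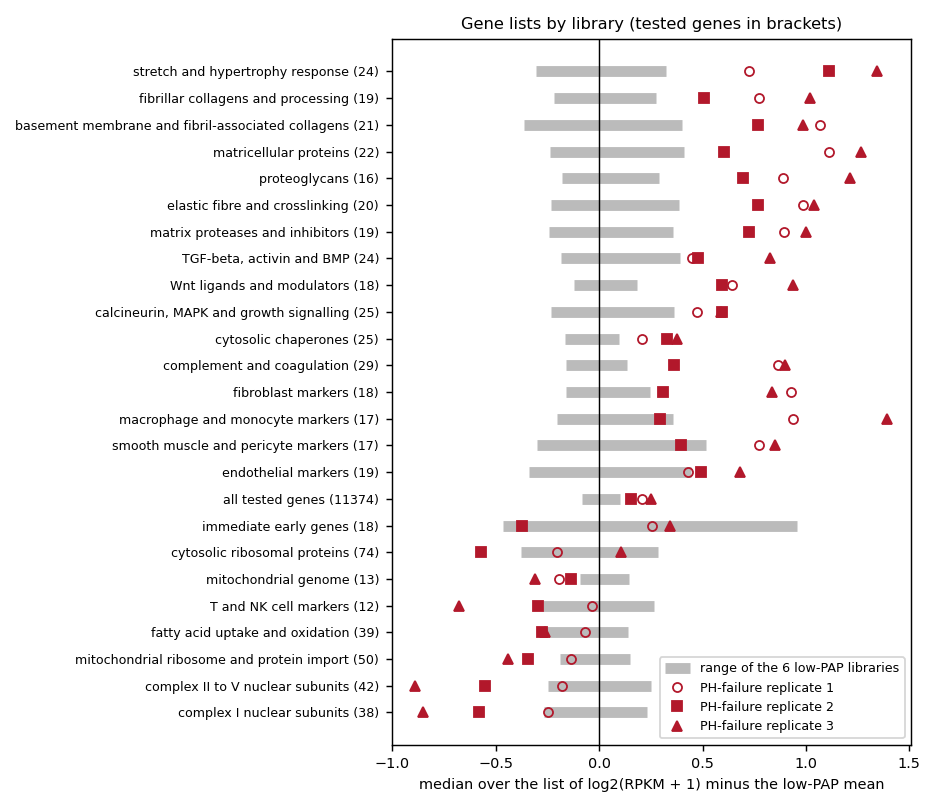
For each list the x axis gives, per PH-failure library, the median over its tested genes of log2(RPKM + 1) minus the low-PAP mean, and the grey bar spans the same medians of the 6 low-PAP libraries. The matrix and stretch lists lie above the bars in all 3 libraries, complexes I to V lie lowest in replicate 3 and within the bars in replicate 1, and all tested genes lie slightly above their bar.

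Many genes of the respiratory chain fell. Of 38 tested nuclear subunits of complex I, 25 fell, and of 42 subunits of complexes II to V 27 fell. None rose, beside 5.79% lower over all tested genes, and the medians were -0.55 and -0.53. Rescaled counts were 0 and 0 higher, 20 and 35 lower for complex I and 0 and 0 higher, 14 and 32 lower for complexes II to V. Under all 3 scalings 19 and 14 fell. These counts rested on replicates 2 and 3: they were 13 without PH-failure replicate 2 and 6 without PH-failure replicate 3 for complex I and 15 without PH-failure replicate 2 and 8 without PH-failure replicate 3 for complexes II to V.

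COX7A1, the muscle isoform of a cytochrome c oxidase subunit, was at 1623, 1166 and 948 RPKM against 1697 to 2921 (median 2446) and fell by 0.96 ± 0.19 (adjusted p = 0.00512). COX6C, a subunit of the same complex, was at 1687, 1075 and 976 RPKM against 1825 to 2727 (median 2224) and fell by 0.91 ± 0.18 (adjusted p = 0.00543). NDUFB3, an accessory subunit of complex I, was at 366, 321 and 231 RPKM against 413 to 739.5 (median 544) and fell by 0.89 ± 0.18 (adjusted p = 0.00528). In each gene replicate 1 was the highest and replicate 3 the lowest PH-failure library, and replicate 1 lay only just below the low-PAP range. ATP5F1, a stalk subunit of ATP synthase, was at 869, 762 and 632 RPKM against 965 to 1368 (median 1169.7) (difference -0.64 ± 0.14, adjusted p = 0.00704), in the same order. Of 13 genes of the mitochondrial genome 3 fell (1 without PH-failure replicate 2 and 5 without low-PAP replicate 6, rescaled 0 and 0 higher, 1 and 5 lower) and none rose, with a median of -0.18 as deposited and 0.08 after quantile normalization. COII, cytochrome c oxidase subunit 2, was at 17238, 17930.3 and 12908 RPKM against 20826 to 28816 (median 24865) and fell by 0.66 ± 0.15 (adjusted p = 0.00785).

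Mitochondrial ribosomal proteins and import genes fell in 23 of 50 cases, all under the 3 scalings, and none rose. They numbered 13 without PH-failure replicate 2 and 5 without PH-failure replicate 3 (rescaled 0 and 0 higher, 27 and 37 lower). MRPS18C was at 69.1, 60.7 and 54.5 RPKM against 79.2 to 127 (median 96.1) (difference -0.67 ± 0.14, adjusted p = 0.00547). MRPS14 was at 95.7, 82.4 and 73.3 RPKM against 106 to 156 (median 127) (difference -0.62 ± 0.13, adjusted p = 0.00655). Both encode proteins of the small mitoribosomal subunit, and neither overlapped between the groups.

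Fatty acid genes fell in 10 of 39 cases (6 without PH-failure replicate 3, rescaled 1 and 1 higher, 12 and 18 lower) and rose in 1. HADHB, the thiolase subunit of the trifunctional protein of beta-oxidation, was at 170.2, 157 and 196 RPKM against 295 to 409 (median 326) and fell by 0.93 ± 0.14 (adjusted p = 0.00171), with 3 close PH-failure values. ECHS1, the short-chain enoyl-CoA hydratase, was at 213, 138 and 118 RPKM against 226 to 337 (median 274) (difference -0.89 ± 0.18, adjusted p = 0.00481). HADH, the next enzyme of the cycle, was at 165, 131 and 92.5 RPKM against 179.5 to 248 (median 213) (difference -0.75 ± 0.16, adjusted p = 0.00583). Both lay below the low-PAP range in every PH-failure library, closest in replicate 1. The gene that rose was ACSL4, an acyl-CoA synthetase for arachidonic acid, at 12.7, 12.8 and 16.4 RPKM against 5.54 to 10.6 (median 6.67) (difference 0.85 ± 0.19, adjusted p = 0.00800).

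Glycolytic genes split, with 6 of 32 higher and 3 lower (5 without PH-failure replicate 1 and 1 without PH-failure replicate 3), and a median of 0.03 (rescaled 3 and 3 higher, 2 and 4 lower). As deposited, the share higher was below the 28.0% over all tested genes. PFKL, the liver-type phosphofructokinase, was at 22.9, 16 and 26.6 RPKM against 7.31 to 13.7 (median 11.0) and rose by 0.93 ± 0.21 (adjusted p = 0.00862). PGAM2, the muscle phosphoglycerate mutase, was at 263, 164 and 153 RPKM against 270.1 to 451 (median 369) and fell by 0.90 ± 0.20 (adjusted p = 0.00737). LDHA, the lactate dehydrogenase subunit of fast muscle, was at 372, 399 and 661 RPKM against 218 to 333 (median 319), above all low-PAP libraries (difference 0.62, adjusted p = 0.0241), a call lost under median-ratio scaling or without PH-failure replicate 3. LDHB, the heart subunit, was at 2099, 1904 and 1459.6 RPKM against 1965 to 2956 (median 2486), inside the low-PAP range in replicate 1 only (difference -0.44, adjusted p = 0.0443), a call lost with no filter on low values, with only the 2 groups fitted, under quantile normalization or without PH-failure replicate 2, PH-failure replicate 3, low-PAP replicate 2, low-PAP replicate 3, low-PAP replicate 4 or low-PAP replicate 5.

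Of 36 genes of the TCA cycle and amino acid breakdown 8 fell (3 without PH-failure replicate 3, rescaled 0 and 0 higher, 9 and 17 lower) and none rose. MAOB, monoamine oxidase B, an enzyme of the outer mitochondrial membrane, was at 6.37, 1.08 and 1.01 RPKM against 11.4 to 33.8 (median 20.1) and fell by 2.69 ± 0.43 (adjusted p = 0.00186), with replicates 2 and 3 near 1 RPKM. BCKDHB, a subunit of the branched-chain keto acid dehydrogenase, was at 27.4, 22.6 and 9.73 RPKM against 31.6 to 43.4 (median 40.3) (difference -1.03 ± 0.24, adjusted p = 0.00884). Both genes were lowest in replicate 3. DGAT2, which makes triglyceride, was at 95.5, 62.6 and 43.6 RPKM against 124 to 172 (median 158) and fell by 1.25 ± 0.28 (adjusted p = 0.00764). MB, myoglobin, was at 12843, 9732 and 5390.4 RPKM against 13008 to 16678 (median 15206), below the low-PAP range by little in replicate 1 and by far in replicate 3 (difference -0.78, adjusted p = 0.0165), a call lost under quantile normalization or without PH-failure replicate 3. None of these 4 genes overlapped between the groups.

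Beside the fall of these genes, the share of reads from the mitochondrial genome was lower in PH-failure, as given above, and the summed level of ventricular sarcomere genes was 65510 to 95690 RPKM in PH-failure and 85420 to 108300 RPKM in low PAP. Their part in the fall of nuclear mitochondrial genes was not tested.

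Of 25 tested cytosolic chaperones 9 rose and none fell (rescaled 8 and 6 higher, 0 and 2 lower), a share of 36.0% higher beside 28.0% over all tested genes. HSPB7, a cardiac chaperone of the small heat shock family, was at 483, 475 and 487 RPKM against 127 to 231 (median 185) and rose by 1.44 ± 0.17 (adjusted p = 0.000423), with the 3 PH-failure values within a few percent of each other. HSPB6, a small heat shock protein that protein kinase A phosphorylates, was at 1076, 1733 and 827 RPKM against 139 to 401 (median 251) and rose by 2.24 ± 0.30 (adjusted p = 0.000920). CRYAB, alpha-B-crystallin, which binds desmin, was at 4844, 6471 and 6711 RPKM against 2929 to 3933 (median 3386) (difference 0.82 ± 0.15, adjusted p = 0.00316). HSP90AB1, a cytosolic HSP90, was at 291, 359 and 469.9 RPKM against 193 to 223 (median 205) (difference 0.83 ± 0.14, adjusted p = 0.00206). The groups did not overlap in these 4 genes.

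Of 24 genes of folding in the endoplasmic reticulum, 8 rose, a share of 33.3% near the 28.0% over all tested genes, and none fell. The number that rose was 3 without PH-failure replicate 3, 5 without low-PAP replicate 3, 5 without low-PAP replicate 4 and 5 without low-PAP replicate 5 (rescaled 6 and 3 higher, 1 and 1 lower). ATF6, a membrane-bound sensor of unfolded protein, was at 10.5, 16.9 and 31.4 RPKM against 2.76 to 7.2 (median 4.47) and rose by 1.78 ± 0.29 (adjusted p = 0.00199). HYOU1, a chaperone of the same compartment, was at 6.04, 5.25 and 7.16 RPKM against 1.73 to 4.05 (median 2.13) (difference 1.01 ± 0.20, adjusted p = 0.00494). Of 24 genes of amino acid transport and the ATF4 response 6 rose (2 without PH-failure replicate 3, rescaled 3 and 3 higher, 0 and 2 lower). That share lay below the 28.0% over all tested genes. SLC6A6, the taurine transporter, was at 8.25, 6.11 and 10.2 RPKM against 0.465 to 0.818 (median 0.688) and rose by 2.44 ± 0.20 (adjusted p = 6.31e-05). SLC38A1, a glutamine transporter, was at 8.35, 15.1 and 27.2 RPKM against 1.28 to 5.14 (median 2.46) (difference 2.12 ± 0.36, adjusted p = 0.00249). Each of these 4 genes was higher in every PH-failure library than in any low-PAP library. GPX3, the secreted glutathione peroxidase, was at 172, 292 and 1043 RPKM against 40.5 to 103 (median 79.1) (difference 2.33 ± 0.50, adjusted p = 0.00651), with replicate 3 several-fold above the others.

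Of 33 genes of muscle ubiquitin ligases, autophagy and lysosome 10 rose (4 without PH-failure replicate 3, rescaled 7 and 5 higher, 1 and 2 lower) and none fell, a share of 30.3% higher beside 28.0% over all tested genes. Of 36 proteasome subunits 1 rose and 5 fell (0 without PH-failure replicate 2, 0 without PH-failure replicate 3, 0 without low-PAP replicate 3, 1 without low-PAP replicate 4, 1 without low-PAP replicate 5 and 9 without low-PAP replicate 6, rescaled 0 and 0 higher, 5 and 18 lower). FBXO32, the atrophy ubiquitin ligase atrogin-1, was at 27.4, 32.7 and 55.9 RPKM against 8.87 to 24.2 (median 14.4) and rose by 1.34 ± 0.27 (adjusted p = 0.00510), with replicate 1 the closest to the low-PAP range. PSMA5, a core subunit of the proteasome, was at 59.8, 55.9 and 58.8 RPKM against 63.3 to 85.9 (median 76.2) (difference -0.34, adjusted p = 0.0345), a call lost with only the 2 groups fitted or without PH-failure replicate 1, PH-failure replicate 2, PH-failure replicate 3, low-PAP replicate 3, low-PAP replicate 4 or low-PAP replicate 5. Of 74 cytosolic ribosomal proteins 2 fell (11 without low-PAP replicate 6, rescaled 1 and 0 higher, 1 and 11 lower) and none rose, with a median of -0.21 as deposited and 0.01 after quantile normalization. EEF1A1, the ubiquitous translation elongation factor, was at 1597, 940.3 and 1784 RPKM against 649 to 846 (median 740.1) and rose by 0.92 ± 0.19 (adjusted p = 0.00624). Its muscle relative EEF1A2 was at 1384, 1489 and 1859.5 RPKM against 760.4 to 1021 (median 963) (difference 0.77 ± 0.15, adjusted p = 0.00450). Reads shared by the pair make the single levels uncertain.

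Splicing and RNA-binding genes gave 6 higher and 4 lower of 30 (rescaled 4 and 3 higher, 4 and 13 lower). Their share higher was below the 28.0% over all tested genes. CELF2, a splicing regulator of fetal heart, was at 3.64, 6.19 and 5.68 RPKM against 1.34 to 2.77 (median 1.45) and rose by 1.15 ± 0.20 (adjusted p = 0.00249). SRSF7, an SR splicing factor, was at 46.9, 36.2 and 42.2 RPKM against 52.4 to 64.2 (median 58.7) and fell by 0.47 ± 0.11 (adjusted p = 0.00919). Neither gene overlapped between the groups. The number of the list that rose was 2 without PH-failure replicate 3 and 3 without low-PAP replicate 3, and the number that fell was 1 without PH-failure replicate 2, 2 without PH-failure replicate 3, 1 without low-PAP replicate 1, 1 without low-PAP replicate 2, 1 without low-PAP replicate 3, 2 without low-PAP replicate 4, 2 without low-PAP replicate 5 and 2 without low-PAP replicate 6.

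Of 25 cell cycle genes 6 rose (3 without PH-failure replicate 3) and 2 fell, with a median of 0.02 as deposited and -0.28 after quantile normalization (rescaled 3 and 4 higher, 6 and 5 lower). Their share higher was below the 28.0% over all tested genes. CDKN2B, the cell cycle inhibitor p15, was at 0.916, 2.24 and 5.02 RPKM against 0.0838 to 0.345 (median 0.153) and rose by 1.5 ± 0.27 (adjusted p = 0.00308). CCND2, cyclin D2, was at 7.12, 11.2 and 6.30 RPKM against 3.91 to 4.59 (median 4.29) and rose by 0.76 ± 0.14 (adjusted p = 0.00331). PCNA, the clamp of DNA replication, was at 12, 7.97 and 10.9 RPKM against 12.8 to 18.4 (median 15.2), below the low-PAP range in all 3 (difference -0.54, adjusted p = 0.0148), a call lost without PH-failure replicate 2. Among 27 genes of cell death, 9 rose (4 without PH-failure replicate 3, rescaled 6 and 6 higher, 0 and 1 lower) and 1 fell. The share that rose, 33.3%, was near the 28.0% over all tested genes. The median was 0.29 as deposited and -0.03 after quantile normalization. TNFRSF12A, the receptor of the cytokine TWEAK, was at 6.09, 7.83 and 17.7 RPKM against 0.496 to 1.67 (median 1.26) and rose by 2.33 ± 0.28 (adjusted p = 0.000461), with replicate 3 highest and no overlap.

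Counts in the immune and vascular lists depended on single libraries and on the scaling, and are read beside 28.0% higher over all tested genes. Of 29 genes of complement and coagulation 20 rose and none fell, 5 of them under all 3 scalings. The number was 13 without PH-failure replicate 1, 9 without PH-failure replicate 3, 11 without low-PAP replicate 3, 12 without low-PAP replicate 4 and 12 without low-PAP replicate 5 (rescaled 7 and 10 higher, 0 and 0 lower). PROS1, protein S, a cofactor that limits clotting, was at 33.3, 35.4 and 61.1 RPKM against 7.15 to 12.3 (median 9.39) and rose by 2.01 ± 0.25 (adjusted p = 0.000586). VWF, the von Willebrand factor of endothelium, was at 12, 27.5 and 47.6 RPKM against 4.03 to 7.74 (median 5.16) (difference 2.04 ± 0.32, adjusted p = 0.00169), with replicate 1 lowest and all 3 above the low-PAP range. Of 23 cytokine and chemokine genes 11 rose (5 without PH-failure replicate 3, rescaled 4 and 6 higher, 0 and 0 lower) and none fell. CX3CL1, the chemokine fractalkine, was at 6.86, 11.9 and 7.57 RPKM against 1.17 to 3.14 (median 1.77) and rose by 1.70 ± 0.27 (adjusted p = 0.00176). IL6ST, the signal-transducing receptor gp130, was at 16.9, 36.6 and 29.4 RPKM against 5.68 to 16.8 (median 7.72) (difference 1.54 ± 0.29, adjusted p = 0.00401), with replicate 1 at the edge of the low-PAP range. Of 25 interferon-stimulated genes 8 rose (1 without PH-failure replicate 2, 3 without PH-failure replicate 3, 5 without low-PAP replicate 3 and 5 without low-PAP replicate 4, rescaled 1 and 2 higher, 0 and 0 lower), 1 of them under all 3 scalings, and their share of 32.0% was near that of all genes. IFIT1 was at 2.72, 3.66 and 4.54 RPKM against 0.766 to 1.73 (median 1.46) (difference 0.97 ± 0.22, adjusted p = 0.00800).

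Cell type markers were read beside these lists. Macrophage and monocyte markers rose in 10 of 17 cases, a count that was 6 without PH-failure replicate 1, 1 without PH-failure replicate 3, 6 without low-PAP replicate 3, 6 without low-PAP replicate 4 and 6 without low-PAP replicate 5 (rescaled 3 and 5 higher, 0 and 0 lower). Their summed level was 288 to 488 RPKM in PH-failure and 203 to 347 RPKM in low PAP, which overlapped. CSF1R, the receptor that macrophages need for survival, was at 9.86, 7.27 and 11.4 RPKM against 2.73 to 4.93 (median 3.70) and rose by 1.14 ± 0.20 (adjusted p = 0.00311). Endothelial markers rose in 7 of 19 cases (2 without PH-failure replicate 3, rescaled 4 and 3 higher, 0 and 0 lower). Their summed levels were 572, 536 and 1566 RPKM in PH-failure and 348 to 514 RPKM in low PAP. Most of the sum in replicate 3 was FABP4, which adipocytes also make. PLVAP, a protein of endothelial fenestrae and vesicles, was at 16.7, 33.0 and 62.9 RPKM against 3.66 to 8.06 (median 3.97) and rose by 2.55 ± 0.35 (adjusted p = 0.000989). Smooth muscle and pericyte markers rose in 12 of 17 cases (7 without PH-failure replicate 3) and fell in 2 (rescaled 8 and 8 higher, 2 and 4 lower), with sums of 3340 to 5327 and 2035 to 2566 RPKM, most of it desmin, which heart muscle also makes. MYH11, smooth muscle myosin heavy chain, was at 21.8, 7.68 and 9.60 RPKM against 1.96 to 5.71 (median 2.43) and rose by 1.76 ± 0.30 (adjusted p = 0.00249). No marker of these 3 lists was at 0 in all libraries, and their part in the lists above was not tested.

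Of 5 tested lymphatic endothelial markers 4 rose (rescaled 3 and 3 higher, 0 and 0 lower), with sums of 30.8 to 38.9 RPKM in PH-failure and 9.66 to 21.6 RPKM in low PAP.

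Of 12 tested T and NK cell markers 4 fell (1 without PH-failure replicate 3, rescaled 0 and 0 higher, 6 and 5 lower) and none rose, and their summed level was 17.8 to 30.5 RPKM in PH-failure and 34.0 to 62.3 RPKM in low PAP, without overlap. TRAT1, an adaptor of the T cell receptor, was at 3.86, 4.91 and 4.45 RPKM against 11.8 to 35.2 (median 14.2) and fell by 1.83 ± 0.32 (adjusted p = 0.00282). TRAC, the constant region of the T cell receptor alpha chain, was at 3.68, 4.15 and 3.44 RPKM against 5.08 to 6.40 (median 5.39) (difference -0.45, adjusted p = 0.0239), a call lost without PH-failure replicate 3. Of 3 tested red cell markers none was called in limma or limma-voom, with 0 at an unadjusted p under 0.05 and 1 call without PH-failure replicate 2, and their sums of 3.56 to 70.1 and 2.92 to 9.30 RPKM overlapped.

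The largest changes held genes outside these groups. RANBP3L, a nuclear export factor for SMAD proteins, was at 4.45, 19.1 and 15.0 RPKM against 0.0673 to 0.328 (median 0.180) and rose by 3.34 ± 0.37 (adjusted p = 0.000278), with 109, 881 and 681 reads in PH-failure and 3 to 16 reads in low PAP. PPIP5K2, a kinase of inositol pyrophosphates, was at 21.8, 56.6 and 85.8 RPKM against 6.17 to 7.2 (median 6.83) and rose by 2.64 ± 0.30 (adjusted p = 0.000293). ANGPTL2, a secreted angiopoietin-like protein, was at 7.79, 7.94 and 16.6 RPKM against 0.515 to 1.52 (median 0.891) (difference 2.55 ± 0.22, adjusted p = 7.68e-05). RAB33A, a small GTPase of vesicle transport, was at 11.8, 16.6 and 12.2 RPKM against 2.70 to 4.01 (median 3.37) (difference 1.74 ± 0.17, adjusted p = 0.000148). The PH-failure libraries of these 4 genes lay far above the low-PAP range, though the rule that chose RANBP3L, PPIP5K2 and ANGPTL2 required separate groups. Among genes that fell, HRASLS, a phospholipid-modifying enzyme, was at 6.98, 4.23 and 8.43 RPKM against 24.1 to 43.7 (median 33.6) (difference -2.23 ± 0.20, adjusted p = 0.000112). FAH, the last enzyme of tyrosine breakdown, was at 5.73, 3.13 and 3.12 RPKM against 9.14 to 20.1 (median 12.1) (difference -1.54 ± 0.22, adjusted p = 0.00114). CA13, a cytosolic carbonic anhydrase, was at 0.0929, 0.135 and 0.640 RPKM against 1.87 to 5.10 (median 3.72) (difference -1.88 ± 0.21, adjusted p = 0.000307). CCDC69, a coiled-coil protein, was at 81.4, 52.5 and 19.8 RPKM against 98.6 to 132 (median 116) (difference -1.37 ± 0.31, adjusted p = 0.00893), with replicate 3 lowest. None of the 4 overlapped, which the rule that chose them required.

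Some genes were near the floor in only 1 of the 2 groups compared. Those under 0.5 RPKM in every low-PAP library and at 1 RPKM or more in every PH-failure library were led by RANBP3L, given above. FBLN7, an adhesion protein of the fibulin family, was at 3.25, 8.12 and 10.1 RPKM (62, 293 and 356 reads) against 0.149 to 0.394 (median 0.243) RPKM (5 to 15 reads). SMAD9, a transcription factor of BMP signalling, was at 1.52, 1.63 and 4.27 RPKM against 0.211 to 0.373 (median 0.263). LGI2, a secreted leucine-rich protein, was at 1.09, 1.26 and 1.10 RPKM against 0.0162 to 0.154 (median 0.0654). The converse held for MACC1, a regulator of MET transcription, at 0.298, 0.228 and 0.0357 RPKM (9, 13 and 2 reads) against 1.76 to 3.17 (median 1.90) RPKM (94 to 191 reads). It also held for SLC44A3, a choline transporter-like protein, at 0.460, 0.244 and 0.178 RPKM against 1.14 to 1.73 (median 1.39). In the PH-healthy libraries RANBP3L was at 11.2, 17.0 and 4.95 RPKM and FBLN7 at 10.3, 22.0 and 2.26 RPKM. SMAD9 was at 1.52, 2.14 and 1.28 RPKM there and LGI2 at 0.947, 2.24 and 0.159 RPKM. MACC1 was at 0.244, 0.0444 and 0.241 RPKM and SLC44A3 at 0.336, 0.331 and 0.376 RPKM. Most of these levels were thus shared by animals with high PAP and no heart failure. Levels chose these genes, so the set is given as a description.

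Pairs of PH-failure libraries were less alike than most pairs within the other groups, a difference that was not tested. Spearman's correlation across genes between pairs of libraries was 0.932 to 0.960 in PH-failure, 0.957 to 0.984 in low PAP and 0.974 to 0.981 in PH-healthy. The number of genes more than 1 log2 unit above the mean of the other 2 PH-failure libraries was 196 in replicate 1, 64 in replicate 2 and 320 in replicate 3. More than 1 unit below that mean were 207, 141 and 204.

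The genes that set each animal apart were of different kinds, and are given as a description. HBB, beta-globin, was listed at 0, 0.585 and 56.3 RPKM in replicates 1, 2 and 3. SAA3, an acute phase serum amyloid, was at 1.56, 1.71 and 64.5 RPKM, and HP, the acute phase protein haptoglobin, at 12.2, 1.19 and 52.9 RPKM. FABP4, a fatty acid-binding protein of adipocytes and endothelium, was at 106, 12.6 and 949 RPKM. Replicate 3 was the highest in all 4, and the low-PAP libraries spanned 5.48 to 173 RPKM in FABP4 and 0.158 to 6.12 RPKM in HBB. MT1A, a metallothionein that binds zinc, was at 8.61, 9.21 and 217 RPKM, again highest in replicate 3. Of the 12 adipocyte markers that the table holds, 11 were tested, none rose and 1 fell, though 4 rose without PH-failure replicate 2. Their summed level was 600.1 to 1673 RPKM in PH-failure and 425 to 791 RPKM in low PAP. BDH1, an enzyme of ketone body use, was low in replicate 3, at 119, 144 and 9.86 RPKM. TNNT1, the slow skeletal troponin T, was at 840.4, 707 and 91.5 RPKM. In TNNT1 replicates 1 and 2 lay above the low-PAP range of 80.2 to 257 RPKM and replicate 3 inside it.

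Replicate 1 stood highest in CRIP1, a LIM-domain protein, at 421, 67.1 and 25.4 RPKM and in FRZB, a secreted Wnt antagonist, at 63.4, 19.0 and 5.56 RPKM, and lowest in FKBP5, which glucocorticoids induce, at 13.0, 78.5 and 123 RPKM. Replicate 2 stood highest in ACTA1, given above, and in IDO1, which breaks down tryptophan, at 3.88, 26.4 and 1.53 RPKM, and lowest in ADIPOQ, the adipocyte hormone adiponectin, at 49.6, 3.62 and 70.5 RPKM. For FKBP5 and ADIPOQ the low-PAP libraries were also far apart, at 12.3 to 137 and 2.28 to 51.3 RPKM. BOLA-DQA2, an MHC class II gene, was at 52.0, 0.141 and 0.144 RPKM in PH-failure and 2.2 to 37.9 RPKM in low PAP. Class II genes differ in number and sequence between cattle, and the sources used here do not say how reads matching several of them were assigned.

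**Figure D4:**
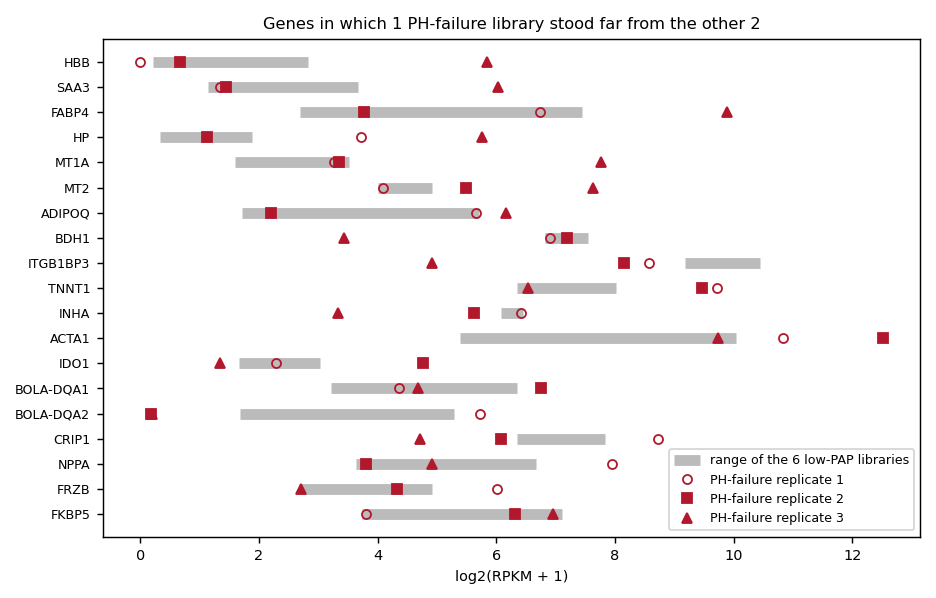
For 19 genes the x axis gives log2(RPKM + 1) of each PH-failure library, with the range of the 6 low-PAP libraries as a grey bar. Replicate 3 (triangle) stands far to the right in HBB, SAA3, FABP4, HP and MT1A and far to the left in BDH1, ITGB1BP3 and TNNT1, while replicate 2 (square) stands to the right in ACTA1 and replicate 1 (open circle) in CRIP1.

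Whether heart failure differed from pulmonary hypertension alone was asked by testing PH-failure against PH-healthy. Of 11374 genes 1 was called by limma (0.00879%), and 308 (2.71%) had an unadjusted p under 0.05. That is below the share of 0.05 which such a cutoff passes on average where no gene differs. The 308 are therefore not read as genes that differ. The gene called, BPHL ENSBTAG00000045888, is a short model of BPHL, an enzyme that activates some antiviral prodrugs, which lies on chromosome 23 (50406550 to 50408215, 330 bases of exon). It was at 7.81, 7.62 and 6.33 RPKM in PH-failure, 17.8, 17.7 and 18.0 RPKM in PH-healthy and 13.0 to 19.4 RPKM in low PAP, so that PH-failure lay below both other groups. The difference from PH-healthy was -1.19 ± 0.14 (adjusted p = 0.0154). This model lies inside the longer model of BPHL (50394683 to 50417050), so reads could be shared between them, and it was singled out after its values were seen. The longer model was at 8.80, 8.14 and 5.94 RPKM in PH-failure, 14.8, 13.7 and 14 RPKM in PH-healthy and 13.5 to 25.7 (median 15.7) RPKM in low PAP. It fell against low PAP (difference -1.05 ± 0.17, adjusted p = 0.00233) and was not called against PH-healthy (difference -0.83 ± 0.20, unadjusted 95% interval -1.26 to -0.39, the kind given for the genes that follow). The call of the shorter model was not made with the library series as a term, by limma-voom, with only the 2 groups fitted, with a block on replicate numbers, or without PH-failure replicate 1 or 3 or any of the 3 PH-healthy replicates.

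THOC7, a subunit of the complex that readies mRNA for export, was at 1.28, 1.88 and 2.24 RPKM in PH-failure, 19.7, 12 and 9.81 RPKM in PH-healthy and 1.83 to 16 (median 11.7) RPKM in low PAP. A single low-PAP library, replicate 2, was at the level of PH-failure. It fell against low PAP by 1.96 ± 0.46 (adjusted p = 0.00966), and the difference from PH-healthy, -2.36 ± 0.53 (interval -3.51 to -1.22), was not called. RGS16, a regulator of G protein signalling, was at 2.44, 2.46 and 3.00 RPKM in PH-failure, 0.749, 1.60 and 0.805 RPKM in PH-healthy and 0.791 to 1.40 RPKM in low PAP. It rose against low PAP (difference 0.82 ± 0.14, adjusted p = 0.00275), and its difference from PH-healthy was 0.85 ± 0.16 (interval 0.49 to 1.2, adjusted p = 0.687).

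For genes named above, PH-healthy values are set beside those of PH-failure, and both groups share their low-PAP controls. NPPB was at 871, 842 and 852 RPKM in the PH-healthy libraries (PH-failure minus PH-healthy -0.30 ± 0.91, interval -2.28 to 1.68). NES was at 305, 299 and 271 RPKM (-0.25 ± 0.15, interval -0.58 to 0.08). COL1A1 was at 86.8, 153 and 45.4 RPKM (0.41 ± 0.37, interval -0.40 to 1.22). MYL7 was at 486, 669.6 and 801 RPKM (0.28 ± 0.42, interval -0.63 to 1.18). CCND2 was at 12.4, 12 and 12.3 RPKM and RAB33A at 22.2, 30.2 and 17.3 RPKM, above all PH-failure libraries in both, with differences of -0.56 ± 0.16 (interval -0.91 to -0.22) and -0.72 ± 0.20 (interval -1.15 to -0.30). None of these 6 differences was called. The intervals of the first 4 include 0, and those of NPPB, COL1A1 and MYL7 are wide enough to hold a difference in either direction.

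**Figure D5:**
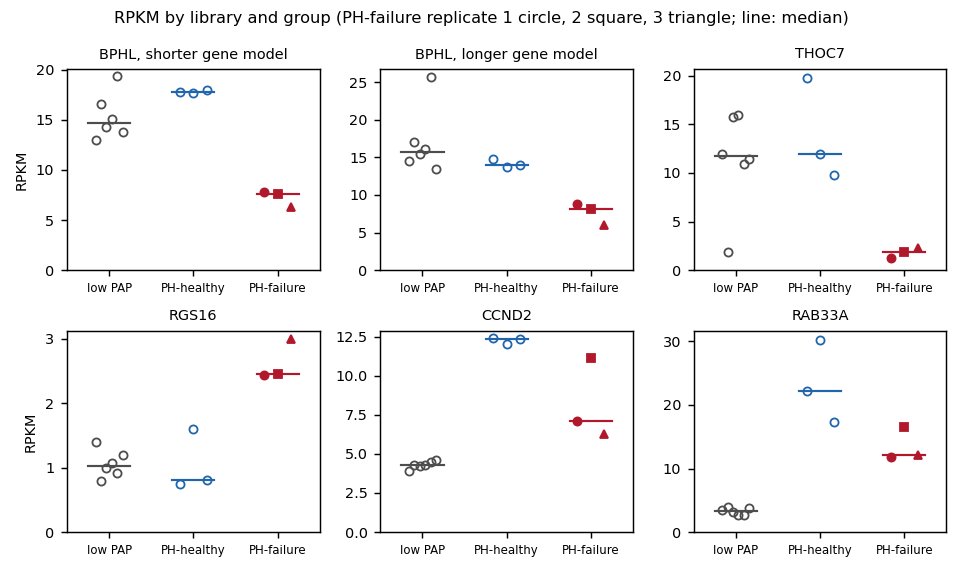
RPKM (linear axes) of 5 genes, with BPHL as 2 gene models, in the 6 low-PAP, 3 PH-healthy and 3 PH-failure libraries, and a line at each group's median. Both BPHL models and THOC7 are lowest in PH-failure, with 1 low-PAP library of THOC7 at the same level, RGS16 is highest there, and CCND2 and RAB33A are highest in PH-healthy.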

How the data were processed

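RNA of 12 right ventricles was sequenced from standard Illumina libraries, per the labels. The authors deposited 1 table of RPKM per gene, which are exon reads scaled to exon length and to the library's mapped reads, per the file headers. The sources used here do not state the aligner, the counting, the strand or the genome build. RPKM steps gave whole reads (within 0.05) for all 11374 tested genes, with 14739237 to 31090198 mapped reads per library and 370 reads in the median tested gene, so low genes are the least precise. The members and gene lists were chosen with earlier results of these data known. log2(RPKM + 1) was fitted with limma 3.58.1 (trend, robust, R 4.3.3) over 3 groups and 12 libraries, with a filter of 1 RPKM in 3 libraries and Benjamini-Hochberg adjustment, and the script was tested on simulated data. A log2 difference on this scale understates the change of low genes. Library measures were compared by exact permutation.

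Alternatives were a pseudocount of 0.1, no filter, quantile and median-ratio scaling, limma-voom on recovered reads, only the 2 groups, the library series as a term, a replicate-number block, and leaving out each library. Named genes were the 14 largest rises and falls free of overlap under both deposited and quantile scaling, and the 10 largest in RPKM. Others were up to 5 called genes per list and direction of smallest p (or 2 where none was called). The rest were 6 genes on each side for each PH-failure library, the leading genes against PH-healthy and the tissue checks. Up to 8 genes near the floor in 1 of the 2 groups compared were also named. Of 63 lists, symbols were matched to the table, 29 by an older name. Nothing in the labels says whether replicates differ in more than the animal, so p-values measure the spread between these animals.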

Additional observations from a re-analysis of the deposited data

Results flagged for a closer look

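In 19 of 164 results, a single low-PAP library stood far from the other 5 of its group. This was measured by its gap to the nearest library over the group's range. The cutoff is passed about 1 in 20 times by independent normal values. Genes that share the same 6 libraries and were chosen with results known are not such values, so no chance rate is known here. Low-PAP replicate 6 was the library in 8 of them and the highest each time: CYR61 at 34.9 RPKM, LAMA2 at 26.3 RPKM, LTBP2 at 5.75 RPKM, MYH11 at 5.71 RPKM, PI16 at 12.4 RPKM, PTGIS at 4.14 RPKM, SCN3B at 67.6 RPKM and XIRP2 at 22.2 RPKM. All but CYR61 also rose in PH-failure, and in each of those 7 genes the PH-failure libraries still lay above this library. Of the 159 named genes 143 were called, so these rises were largely fixed by the choice of genes.

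Low-PAP replicate 2 was highest in NPPB, at 70.4 RPKM where the other 5 lay between 3.23 and 22.2 RPKM, and in NPPA, at 101 RPKM. It was lowest in LDHA, at 218 RPKM, and in THOC7, at 1.83 RPKM where the other 5 lay between 10.9 and 16 RPKM. Low-PAP replicate 5 was highest in ADIPOQ (51.3 RPKM), FABP4 (173 RPKM) and the longer model of BPHL (25.7 RPKM). Low-PAP replicate 1 was highest in HBB (6.12 RPKM), MT1A (10.5 RPKM) and the share of reads from the mitochondrial genome (29.9%), and replicate 4 in ACTC1 (8988 RPKM). The mean difference of the mitochondrial share without low-PAP replicate 1 was -4.27 percentage points.

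The shorter model of BPHL was called between PH-failure and PH-healthy, with a difference of -1.19 on the log2 scale. The call was not made with the library series as a term, by limma-voom, with only the 2 groups fitted, with a block on replicate numbers, or without PH-failure replicate 1 or 3 or any of the 3 PH-healthy replicates.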

How the results depend on the processing

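Of the 3848 genes called between PH-failure and low PAP, 735 that rose and 116 that fell were called in every alternative. Quantile normalization gave 2551 calls (1133 higher, 1418 lower), and median-ratio scaling 1530 higher and 1681 lower. Leaving out single libraries gave 1540 to 4669 calls, 1283 to 3832 higher and 257 to 929 lower. Of 143 named genes that were called, 110 held throughout, and none turned sign. PH-failure against PH-healthy gave 0 calls with the series as a term, by limma-voom, with only the 2 groups, and with the replicate block, and leaving out single libraries gave 0 to 4 (0 to 3 higher, 0 to 1 lower). The mitochondrial share differed by -5.32 percentage points, and by -5.8 to -4.27 without single libraries, with an exact p of 0.107 without PH-failure replicate 3 (-4.55). The cause of these shifts was not tested.

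The labels state no pairing of animals by replicate number. Deviations of same-numbered libraries correlated at 0.172, 0.193 and -0.0834 between PH-failure and low PAP, too few values to decide whether the numbers pair animals. A replicate block gave 1379 calls (1222 higher, 157 lower) and 29 of the named calls were lost with it. Replicate numbers 4, 5 and 6 occur only in low PAP, so the block takes these libraries out of the comparison. The lost calls therefore cannot be ascribed to pairing. Of the 3 PH-failure libraries, replicate 2 correlated best with its own number.

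Differences of genes that were not called turned sign in 9 of 16 cases. Over the fits that left out 1 library, CRIP1 ran from -1.73 to 0.27, FKBP5 from -1.06 to 0.51, FRZB from -0.0354 to 1.61, HBB from -0.83 to 2.09, IDO1 from -0.65 to 1.06, NPPA from -0.32 to 1.75 and SAA3 from -1.12 to 1.22. MYL2 was at -0.0071 under median-ratio scaling and TNNT2 at 0.12 under quantile normalization.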

Other observations

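Ratios of paired isoforms or partners within a library were computed for 4 pairs chosen after their values were seen. They are given as a description with no test. A constant factor for a library, as in median-ratio scaling, leaves such a ratio unchanged, while quantile normalization can change it. The ratio of LDHA to LDHB was 0.177, 0.21 and 0.453 in PH-failure and 0.0869 to 0.162 in low PAP, without overlap. It was 0.187 to 0.200 in PH-healthy. The ratio of ACTA1 to ACTC1 was 0.307, 1.47 and 1.02 against 0.00591 to 0.156, although ACTA1 alone overlapped between the groups. NPPB stood to NPPA as 1.87, 32.6 and 58.3 against 0.105 to 1.95, with replicate 1 inside the low-PAP range. EDN1 stood to its receptor EDNRA as 0.174, 0.197 and 0.77 against 0.0317 to 0.0709. The ratios of LDHA to LDHB and of ACTA1 to ACTC1 can be read only as relative abundance, since the sources used here do not say how reads shared by such paralogs were assigned.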
